A study of Mus musculus with 12 samples.

Results

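The TNF superfamily was followed here through 10 genes, found by symbol among the 57010 Ensembl gene IDs of the count tables. They are the ligands Tnf, Tnfsf11 (RANKL) and Tnfsf10 (TRAIL), the secreted decoy receptor Tnfrsf11b (osteoprotegerin), and the membrane receptors Tnfrsf1a, Tnfrsf1b, Tnfrsf12a, Tnfrsf10b, Fas and Cd40. RNA had been measured in 12 libraries of primary mouse chondrocytes, the cells that make cartilage matrix, in a study on SIRT5, an enzyme that removes malonyl and related groups from lysines. By the treatment label, 4 libraries were Control, 4 were WT and 4 were SIRT5F101L mutant, and the protocol speaks of transfection with a wild-type or a SIRT5F101L plasmid. The genotype label was wild type for all 3 groups. What the Control cells received, the vector and its promoter, the time after transfection, and the age of the animals are not given in the sources used here. Nothing in the labels says that the libraries came from separate cultures or animals, so p-values measure only the spread between these libraries, which may be technical.

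TNF superfamily ligands are trimeric proteins that bind receptors of a matching family. Receptors with a death domain, such as TNFR1 (Tnfrsf1a), Fas and the TRAIL receptor (Tnfrsf10b), can drive either NF-kappaB signalling or cell death, while TNFR2 (Tnfrsf1b), Fn14 (Tnfrsf12a) and CD40 lack that domain and signal through TRAF adaptors. RANKL on the surface of chondrocytes, osteoblasts and stromal cells binds RANK on osteoclast precursors and drives osteoclast formation, and osteoprotegerin blocks it by binding RANKL. TNF is a main inflammatory cytokine of the arthritic joint.

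RefSeq promoter windows of GRCm38.p6, which run from 250 bases before to 50 bases after the start site, matched 7 of the 10 genes. Tnfrsf11b, Cd40 and Tnfrsf10b had no entry. The windows of Tnfsf11, Tnf and Fas are shown because among the members with an entry they held the largest differences from Control. They are written 5′ to 3′ on the gene's strand, and capitals mark matches to a loose kappaB pattern (GGGNNNNNCC), the AP-1 pattern (TGANTCA) or the TATA pattern (TATAA), each on both strands.
Tnfsf11 (chr14:78307994-78308293, - strand): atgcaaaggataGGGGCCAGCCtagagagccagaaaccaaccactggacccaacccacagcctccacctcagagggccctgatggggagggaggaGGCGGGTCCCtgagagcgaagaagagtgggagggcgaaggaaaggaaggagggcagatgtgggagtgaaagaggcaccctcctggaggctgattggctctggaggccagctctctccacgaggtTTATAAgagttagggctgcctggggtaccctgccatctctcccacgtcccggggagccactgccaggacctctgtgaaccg
Tnf (chr17:35201958-35202257, - strand): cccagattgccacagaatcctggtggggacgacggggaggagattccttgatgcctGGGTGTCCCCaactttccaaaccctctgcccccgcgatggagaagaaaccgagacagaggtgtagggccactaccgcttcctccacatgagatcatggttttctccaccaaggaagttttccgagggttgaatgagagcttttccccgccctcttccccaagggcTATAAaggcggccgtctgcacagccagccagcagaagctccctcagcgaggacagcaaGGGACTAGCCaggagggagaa
Fas (chr19:34290409-34290708, + strand): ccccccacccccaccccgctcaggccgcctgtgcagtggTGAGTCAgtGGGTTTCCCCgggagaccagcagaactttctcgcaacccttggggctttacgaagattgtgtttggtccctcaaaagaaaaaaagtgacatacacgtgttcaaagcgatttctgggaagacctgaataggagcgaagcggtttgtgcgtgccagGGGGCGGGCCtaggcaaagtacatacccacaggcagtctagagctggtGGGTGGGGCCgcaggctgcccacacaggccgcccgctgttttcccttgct
Tnfsf11 and Tnf each held TATAA close before the start site, at -30 and -29. In Tnfsf11 that match overlapped a second one on the other strand at -31. The TATA pattern was present in 24.9% of all 32851 windows of this length, and Tnfrsf12a also held it, at -239. Fas held the AP-1 pattern at -211, a pattern present in 7.81% of all windows, and no other matched member held it. The loose kappaB pattern was found in 6 of the 7 windows, all but that of Tnfsf10, but 50.8% of all windows hold it. After those matches had been seen, the stricter kappaB consensus was searched too: it was found in none of the 7 windows and in 8.46% of all windows. These are matches of letters, not sites shown to be used.

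Library totals ran from 15095357 to 24242139 counts, and 14253 genes passed the filter on low counts. Levels are given as CPM (library-size-scaled counts, with TMM factors), and differences as edgeR log2 fold changes. A gene is called where the Benjamini-Hochberg adjusted p over all tested genes is under 0.05. Sirt5 itself, the mouse gene, was at 0.479 to 0.873 CPM in Control, 0.0514 to 0.577 in WT and 0.481 to 1.23 in SIRT5F101L libraries, and was not called in any of the 3 comparisons (edgeR adjusted p 0.143, 0.954 and 0.459). The counts of mouse Sirt5 therefore did not show the plasmids, and the group names below are those of the labels. SIRT5F101L replicate 1 stood apart: its log2 CPM correlated at 0.989 to 0.990 with the other libraries of its group and at 0.992 to 0.995 with the WT libraries. The summed level of 8 chondrocyte markers, all detected, was 9082 to 11426 CPM in Control, 2734 to 2854 in WT and 2209 to 2464 in SIRT5F101L libraries. Of these, 7 fell in both plasmid groups, while Acan was at 133, 184 and 143 CPM, called higher in WT and not called in SIRT5F101L. Macrophage and leukocyte markers summed to 164 to 197, 128 to 148 and 138 to 176 CPM in the same order, but their members went in opposite directions. Of the 6 tested, 5 fell in both plasmid groups, among them Adgre1 (7.30 CPM in Control, 1.78 in WT and 1.93 in SIRT5F101L) and Lyz2 (125, 60.4 and 61.0 CPM), while Cd14 rose from 12.4 to 51.2 and 59.7 CPM. T cell markers stayed under 1 CPM in sum, with Cd3e, Cd3d and Cd3g at or under 3 counts in every library. The 7 osteoclast markers summed to 417 to 470 CPM in Control, 297 to 347 in WT and 265 to 340 in SIRT5F101L libraries. Most of that was Ctsk, which chondrocytes and fibroblasts can also express and which fell from 444 to 313 and 282 CPM. Atp6v0d2 was at 1.64, 1.96 and 2.99 CPM and was called higher in SIRT5F101L, Ocstamp and Oscar were detected under 1 CPM in every group, and Dcstamp was at or under 3 counts. Osteoblast and osteocyte markers summed to 18.0 to 25.0 CPM in Control, 4.11 to 4.78 in WT and 3.51 to 5.21 in SIRT5F101L, with Ibsp at 14.7, 0.284 and 0.146 CPM, Sp7 at 3.16, 0.991 and 1.11 CPM and Alpl, not called, at 2.85, 3.02 and 3.21 CPM. Fibroblast markers summed to 546 to 585, 318 to 347 and 365 to 400 CPM in the same order: Postn fell from 243 to 18.7 and 24.6 CPM, and Pdgfra rose from 200 to 262 and 306 CPM. Itgam and Acp5 are listed at 0 in every library and lie wholly inside another gene, where a 0 does not measure expression. The part of these marker shifts in the results below was not tested, and in bulk RNA fewer cells of a type and less RNA per cell cannot be told apart.

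Of the 10 genes, 9 passed the filter. In the WT libraries 7 of these differed from Control, with 5 higher and 2 lower, and their median log2 fold change was 0.42. Over all tested genes 56.8% were called in that comparison (28.7% higher and 28.1% lower), with a median of -0.01. In the SIRT5F101L libraries 6 of the 9 differed from Control, with 4 higher and 2 lower and a median of 0.14, against 60.7% of all tested genes (30% higher, 30.7% lower) and a median of -0.02. Both comparisons use the same Control libraries. Cd40, one of those called higher in WT, was above the filter's limit in none of the Control libraries, and Tnfsf11 in 2 of them. Both passed the filter, which asks for 4 libraries, through the plasmid libraries where they are higher, so neither the counts nor the medians of the tested members support a direction. Since more than 50% of all genes were called, the count of members called is near the background, and the size of each difference carries the description. Between SIRT5F101L and WT none of the 9 was called, where 0.0421% of all tested genes were (0.0281% higher, 0.014% lower). That share depends on 1 library: without SIRT5F101L replicate 1 the fit called 2212 genes, among them 1 member.

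**Figure D1:**
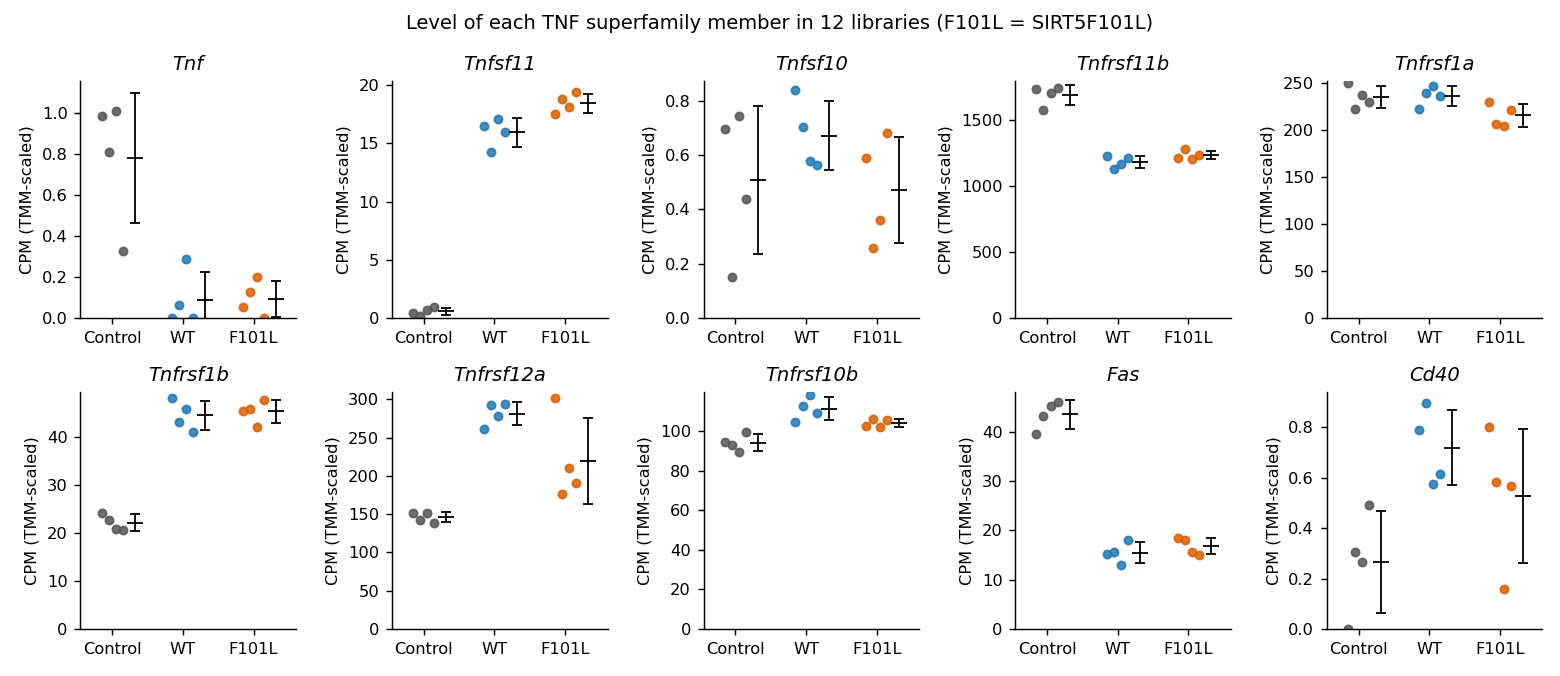
CPM (TMM-scaled, vertical axis, linear from 0) of the 10 genes in each library, by group; points are libraries and bars the mean ± SD of 4. Tnfsf11 lies between 14.2 and 19.4 CPM in the 8 plasmid libraries and under 1 CPM in Control, and Fas and Tnfrsf11b are lower in all 8 than in every Control library.

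Tnfsf11, which encodes RANKL, had the largest difference of the 9. Its counts were 8, 4, 13 and 18 in the Control libraries, 335, 222, 296 and 310 in WT, and 327, 289, 451 and 342 in SIRT5F101L. The levels were 0.464, 0.203, 0.692 and 0.982 CPM in Control, 16.5, 14.2, 17.1 and 15.9 CPM in WT, and 17.5, 18.8, 18.1 and 19.4 CPM in SIRT5F101L. Every plasmid library was above every Control library. Tnfsf11 rose 27.2-fold in WT (log2 4.76, SE 0.20, edgeR adjusted p 4.7e-14) and 31.3-fold in SIRT5F101L (log2 4.97, SE 0.20, edgeR adjusted p 1.96e-14). With 4 to 18 counts in Control, the size of the fold rests on few reads, and it ran from 4.46 to 5.13 and from 4.67 to 5.33 on the log2 scale over the other settings and left-out libraries. SIRT5F101L libraries were all above the WT libraries, but the difference of 0.21 (95% interval -0.06 to 0.47) was not called (edgeR adjusted p 0.513).

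Tnf, the inflammatory cytokine, went the other way at a very low level. It had 17, 16, 19 and 6 counts in Control, 0, 1, 5 and 0 in WT, and 1, 2, 5 and 0 in SIRT5F101L libraries. That is 0.784 ± 0.317 CPM in Control, 0.0882 ± 0.137 in WT and 0.0959 ± 0.0877 in SIRT5F101L (SD, n = 4). The lowest Control library, at 0.327 CPM, was above the highest plasmid library, at 0.289 CPM. Tnf missed the filter, being above its limit of 0.531 CPM in 3 Control libraries and in none of the others, so its CPM was compared by a 2-sided exact permutation test chosen after this was seen. The exact p was 0.0286 for WT and for SIRT5F101L against Control, the smallest that 4 against 4 libraries allow (0.0429 adjusted over 3 comparisons), and 1 between the plasmid groups. Leaving out any library of a comparison raises the smallest exact p that can be reached to 0.0571.

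Tnfsf10, which encodes the death ligand TRAIL, was near the filter in every group. It stood at 0.508 ± 0.273 CPM in Control, 0.671 ± 0.128 in WT and 0.472 ± 0.195 in SIRT5F101L libraries (SD, n = 4), with 3 to 17 counts a library. The groups overlapped, and no comparison was called (edgeR adjusted p 0.441, 0.877 and 0.643). The intervals are wide: -0.51 to 1.34 on the log2 scale for WT minus Control.

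Tnfrsf11b, the decoy that binds RANKL, was the most abundant of the 10 genes. It was at 1734, 1578, 1704 and 1741 CPM in Control, 1231, 1130, 1165 and 1213 in WT, and 1215, 1280, 1207 and 1237 in SIRT5F101L libraries. No Control library overlapped the others. Tnfrsf11b fell by 0.51 on the log2 scale (SE 0.06, edgeR adjusted p 1.69e-07) in WT and fell by 0.45 (SE 0.06, edgeR adjusted p 8.62e-07) in SIRT5F101L. The plasmid groups overlapped, with a difference of 0.06 (95% interval -0.06 to 0.18).

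The ligand and its decoy thus moved in opposite directions. Per kilobase of transcript, there were 0.338, 0.162, 0.512 and 0.711 Tnfsf11 for every 1000 Tnfrsf11b in the Control libraries. The same measure was 16.9, 15.9, 18.5 and 16.6 in WT and 18.1, 18.5, 18.9 and 19.7 in SIRT5F101L libraries. With 0.5 added to each count, the mean log2 ratio of counts was -11.62 ± 0.864 in Control, -6.22 ± 0.0925 in WT and -6.07 ± 0.0526 in SIRT5F101L (SD, n = 4), so that it was 42.5-fold and 47.1-fold higher than Control. These folds rest on 4 to 18 Tnfsf11 counts in each Control library, and with 2 added in place of 0.5 the differences were 5.19 and 5.34 on the log2 scale in place of 5.41 and 5.56. Beside these changes, the osteoblast markers Ibsp and Sp7 and the fibroblast marker Postn were lower in all 8 plasmid libraries, while the osteoblast marker Alpl was not called and the fibroblast marker Pdgfra was higher. Ibsp was above the filter's limit in 4 Control, 0 WT and 0 SIRT5F101L libraries, so it passed only through Control, where it is higher. The part of these markers in the ratio was not tested. Osteoprotegerin mRNA remained in excess of RANKL mRNA in every library. The ratio is built from values already tested, so no test was made of it.

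**Figure D2:**
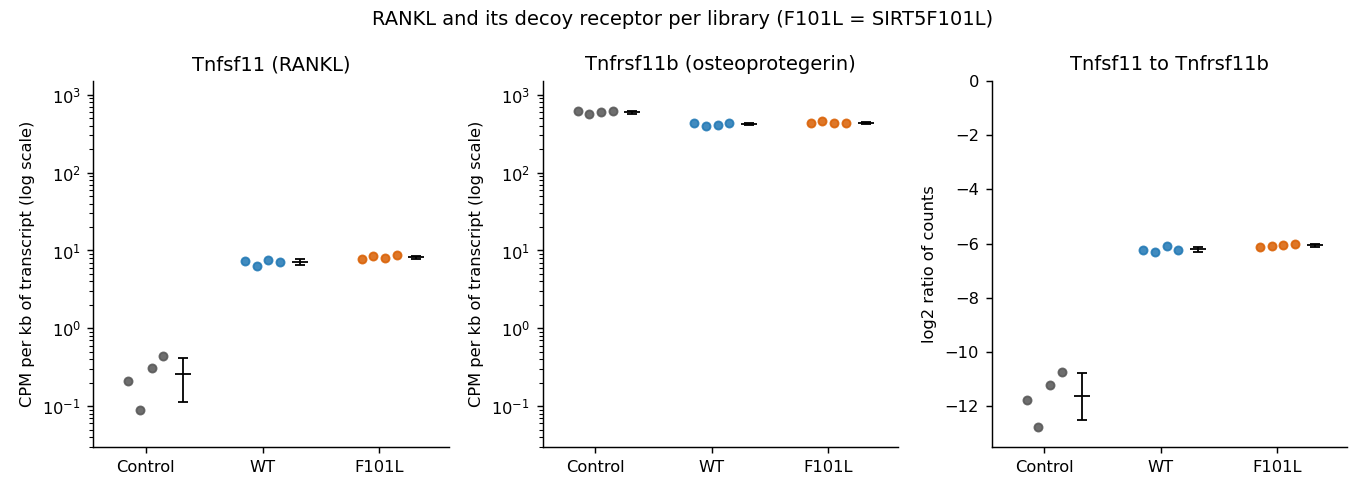
Tnfsf11 and Tnfrsf11b in CPM per kb of transcript (log scale) and the log2 ratio of their counts, with 0.5 added to each (right), for each library; bars are the mean ± SD of 4. The ratio is between -12.8 and -10.8 in Control and between -6.31 and -6.00 in the 8 plasmid libraries.

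The receptors of TNF itself differed from each other. Tnfrsf1a, the widely expressed TNFR1, was at 235 ± 11.8 CPM in Control, 236 ± 10.2 in WT and 216 ± 12 in SIRT5F101L libraries (SD, n = 4), and the groups overlapped. It was not called against Control in WT (0.01, 95% interval -0.12 to 0.13) or in SIRT5F101L (-0.12, edgeR adjusted p 0.0776), where 3 of 20 other settings called it. Tnfrsf1b, the inducible TNFR2, was at 24.3, 22.8, 20.8 and 20.7 CPM in Control, 48.2, 43.3, 45.9 and 41.2 in WT, and 45.5, 46.0, 42.3 and 47.9 in SIRT5F101L. All 8 plasmid libraries were above all Control libraries, and Tnfrsf1b rose 2.01-fold and 2.05-fold (log2 1.01 and 1.03, SE 0.08 for both, edgeR adjusted p 7.96e-10 and 5.14e-10). The difference between the plasmid groups was 0.02 (95% interval -0.13 to 0.18).

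Tnfrsf12a, the TWEAK receptor Fn14, was at 151, 143, 151 and 138 CPM in Control and 261, 292, 278 and 294 in WT libraries. In SIRT5F101L it was at 302 in replicate 1, the library that stood apart, and at 176, 210 and 191 in the others. Tnfrsf12a rose 1.93-fold in WT (log2 0.95, SE 0.11, edgeR adjusted p 5.72e-07) and 1.51-fold in SIRT5F101L (0.59, SE 0.11, edgeR adjusted p 0.000153). Between SIRT5F101L and WT the difference of -0.36 (95% interval -0.59 to -0.12) was not called (edgeR adjusted p 0.350). Without SIRT5F101L replicate 1 it was -0.54 and called (edgeR adjusted p 8.63e-07), in a fit that then called 2212 genes instead of 6.

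The death receptors also went in different directions. Fas was at 39.6, 43.3, 45.3 and 46.1 CPM in Control, 15.2, 15.6, 12.9 and 18.1 in WT, and 18.4, 18.1, 15.7 and 15.1 in SIRT5F101L libraries. Control did not overlap the others, and Fas was 2.81-fold lower in WT (log2 -1.49, SE 0.10, edgeR adjusted p 8.31e-11) and 2.59-fold lower in SIRT5F101L (SE on the log2 scale 0.10, edgeR adjusted p 2.4e-10). Tnfrsf10b, the TRAIL receptor, was at 94.2 ± 4.26 CPM in Control, 111 ± 5.83 in WT and 104 ± 2.15 in SIRT5F101L (SD, n = 4). It rose 1.18-fold in WT (log2 0.24, SE 0.06, edgeR adjusted p 0.00136). The 1.11-fold rise in SIRT5F101L (0.14, SE 0.06, edgeR adjusted p 0.0364) was lost in 8 of 20 other settings.

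Cd40, a costimulatory receptor, was barely detected. Its counts were 0, 6, 5 and 9 in Control, 16, 14, 10 and 12 in WT, and 15, 9, 4 and 10 in SIRT5F101L libraries. It was above the filter's limit in 0 Control, 4 WT and 3 SIRT5F101L libraries, so it was tested only because it was higher in the plasmid groups. WT did not overlap Control, and Cd40 was called higher there (log2 1.39, SE 0.56, edgeR adjusted p 0.0402). That call was lost without any 1 of 7 libraries (Control replicates 1, 2 and 3 and each WT replicate), with adjusted p from 0.0513 to 0.101. SIRT5F101L overlapped both groups and was not called.

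**Figure D3:**
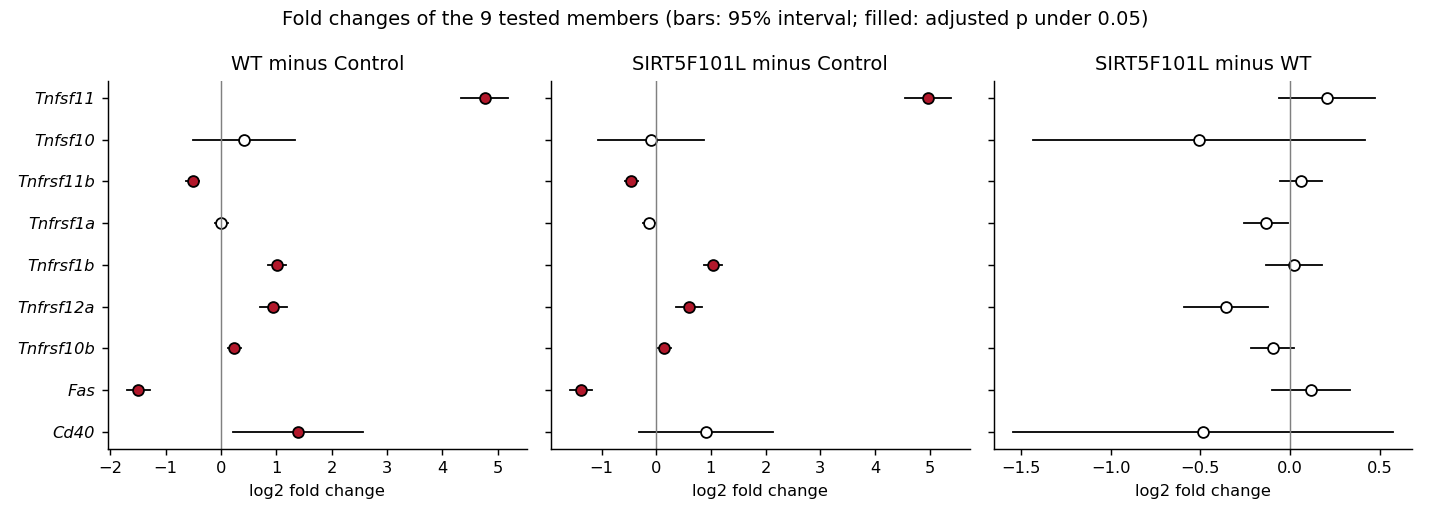
Log2 fold changes of the 9 tested genes in the 3 comparisons (horizontal axis, its range differing between panels), with 95% intervals; filled points have an edgeR adjusted p under 0.05. Tnfsf11 lies at 4.76 and 4.97 against Control, and no point is filled between SIRT5F101L and WT.

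Scaled by transcript length, the order of the levels in Control was Tnfrsf11b (599 CPM per kb), Tnfrsf12a (148), Tnfrsf1a (109), Tnfrsf10b (29.6), Fas (26.8) and Tnfrsf1b (5.81), with Tnf (0.478), Tnfsf11 (0.262), Tnfsf10 (0.102) and Cd40 (0.0888) all under 1. Tnfrsf10b and Fas were within their spread, and so was each neighbouring pair among the 4 lowest genes, so that their order is not resolved. In WT, Tnfsf11 stood at 7.13 CPM per kb beside Fas at 9.52 and Tnfrsf1b at 11.7.

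Genes around the members were taken from 6 lists of the pathway, 86 genes of which 62 were tested. The counts of each list are to be read beside the 56.8% of all tested genes called in WT (28.7% higher, 28.1% lower) and the 60.7% in SIRT5F101L (30% higher, 30.7% lower), so a list with about that share called is not set apart by its count. Some list genes passed the filter only through the group where they are higher: Edar through Control, and Tnfsf13b, Tnfsf8 and Tnip3 through the plasmid libraries. Tnfaip8l3 passed through 3 Control libraries, where it is higher, and 1 WT library. The counts and medians of the lists that hold them therefore support no direction. Of 15 other ligands 5 were tested, and 4 were called higher in WT and 4 in SIRT5F101L. Tnfsf13b and Tnfsf8 were among the 5 tested but were above the filter's limit in none of the Control libraries, so the filter favours a rise and the count supports no direction. Tnfsf18 (GITRL) rose from 0.788 CPM in Control to 7.71 and 7.36, Tnfsf15 (TL1A) from 3.87 to 16.4 and 20.6, and Tnfsf9 (4-1BBL) from 2.45 to 4.94 and 4.62. Tnfsf12 and Tnfsf13 are listed at 0 in every library, and so are the X-linked ligands Cd40lg and Eda, along with all 2414 IDs of chromosome X. Of 1245 autosomal protein-coding genes lying wholly inside another gene, as Tnfsf12 and Tnfsf13 do, 87.1% are at 0, against 21.2% of 10880 with no overlap, so a 0 there does not measure expression. None of the 10 members is at 0 throughout, and the body of each is free of overlap except for 0.428% of Fas.

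Of 21 other receptors 11 were tested, and 4 rose and 3 fell in WT (median -0.14), while 4 rose and 4 fell in SIRT5F101L (median -0.09). Tnfrsf23, a decoy TRAIL receptor, rose from 8.29 CPM to 51.9 and 55.5, and Tnfrsf21 (DR6) from 20.7 to 45.8 and 42.1. Relt, a receptor of the family, was at 3.73, 8.03 and 7.33 CPM. Edar, the ectodysplasin receptor, was called lower, at 4.29 CPM in Control and 0.345 and 0.453 in the plasmid groups, having been above the filter's limit in 4 Control, 0 WT and 2 SIRT5F101L libraries. Tnfrsf25 (DR3), the receptor of TL1A, fell from 9.59 CPM to 1.06 and 1.25. Ngfr, the p75 neurotrophin receptor, fell from 9.13 CPM to 4.85 and 5.55. Tnfrsf11a, the RANKL receptor RANK, was at 1.65 ± 0.32 CPM in Control, 1.24 ± 0.373 in WT and 0.95 ± 0.36 in SIRT5F101L (SD, n = 4). Its fall of 0.80 on the log2 scale in SIRT5F101L (edgeR adjusted p 0.0368) was lost in 6 other settings, 5 of them left-out libraries, and WT was not called (adjusted p 0.276).

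Of 19 tested adaptors and kinases, 9 rose and 1 fell in WT, and 8 rose and 3 fell in SIRT5F101L, with medians of 0.14 in both. Traf3, which restrains non-canonical NF-kappaB signalling, rose from 32.3 CPM to 59.1 and 66.6, and Traf1 from 2.42 to 4.56 and 4.55. Of 12 tested brakes and death-pathway regulators, 5 rose and 4 fell in WT, and 5 rose and 3 fell in SIRT5F101L, with medians of 0.22 and 0.21. Tnfaip3 (A20), which switches NF-kappaB signalling off, rose from 6.34 CPM to 22.4 and 22.9. Cflar (c-FLIP), which blocks caspase-8 at death receptors, rose from 73.7 to 209 and 237 CPM, and Birc3 (cIAP2), a ubiquitin ligase of the TNFR1 complex, from 13.6 to 26.3 and 29.1 CPM.

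Of 9 tested genes of TNF shedding and mRNA decay, 5 rose and 2 fell in WT and 6 rose and 3 fell in SIRT5F101L, with medians of 0.38 and 0.35. Zc3h12a (regnase-1), which degrades inflammatory mRNAs, rose from 11.4 CPM to 28.2 and 30.5. Other mRNA decay genes of the list went both ways. Zfp36 was called lower in both plasmid groups, at 73.0, 63.2 and 59.6 CPM, and so was Zfp36l2, at 108, 77.1 and 75.9 CPM. Zfp36l1 and Rc3h1 were called higher in both. The list of genes named for induction by TNF held 6, all tested. Of these, 3 rose and 1 fell in each comparison with Control, with medians of 0.20 and 0.16. Tnfaip8l1 and Tnfaip8l3 are in it though named for likeness to Tnfaip8, and Tnfaip3 was counted among the brakes instead. Tnfaip2 rose from 30.7 CPM to 81.6 and 81.0, and Tnfaip6 (TSG-6) from 2.14 to 5.58 and 6.07. The 1 that fell was Tnfaip8l3, called lower at 1.02, 0.201 and 0.149 CPM. It was above the filter's limit in 3 Control, 1 WT and 0 SIRT5F101L libraries. No gene of the 6 lists was called between SIRT5F101L and WT in the main fit. Without SIRT5F101L replicate 1 that comparison called 2212 genes, and the lists were not counted there.

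**Figure D4:**
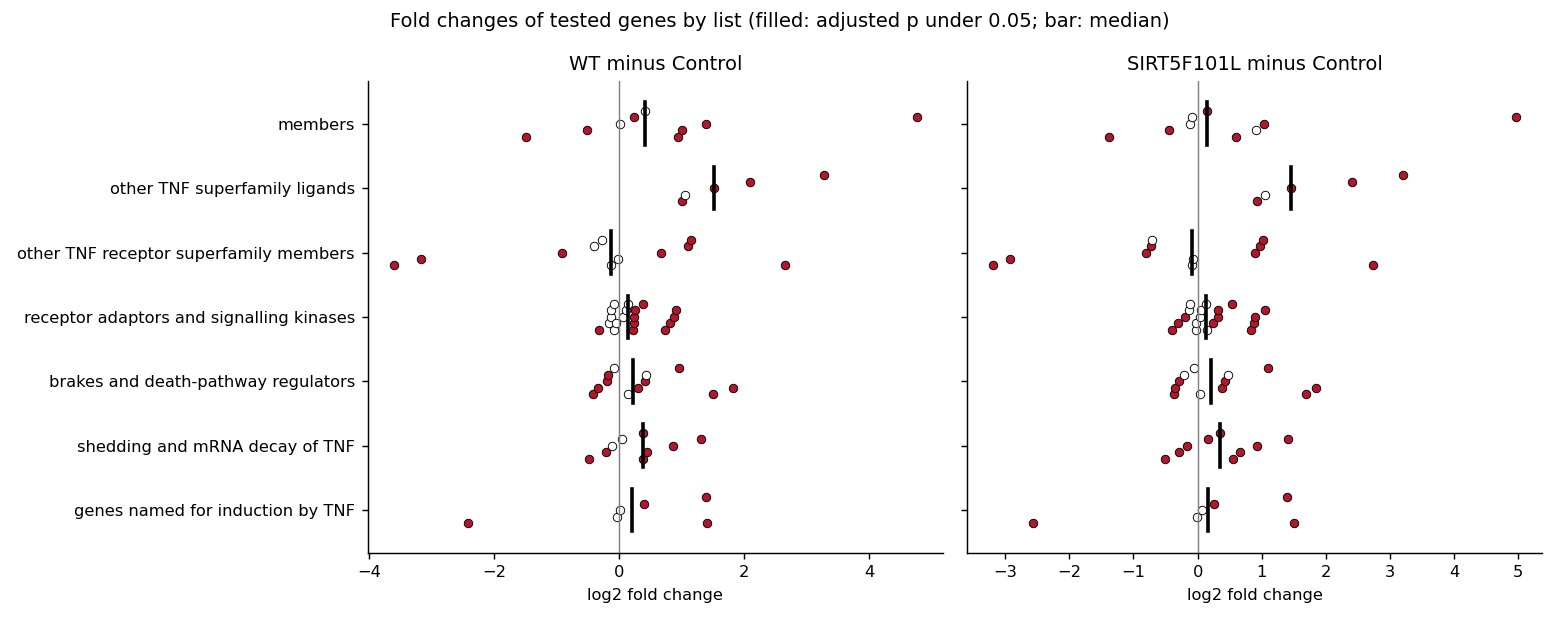
Log2 fold changes of tested genes of each list against Control, in WT (left) and SIRT5F101L (right) libraries; filled points have an edgeR adjusted p under 0.05 and the vertical bars are list medians, that of the other ligands being the value of Tnfsf13b, which passed the filter only through the plasmid libraries. Among the members Tnfsf11 lies at 4.76 and 4.97, and among the other receptors Tnfrsf25 lies at -3.18 and -2.93 and Tnfrsf23 at 2.65 and 2.74.

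Over the 12 libraries, and only among tested genes whose mean reached 5 CPM in 1 group or more, the genes whose log2 CPM followed Tnfsf11 most closely were Sulf1 (Pearson r 0.997), Kcnj2 (0.997) and Tmem200a (0.996). For Tnfrsf11b they were Ndnf (0.993), Cyp26b1 (0.990) and Tmtc1 (0.990), and for Tnf they were Ctnnbip1 (0.966), Glul (0.962) and Mgll (0.959). These values describe likeness only: all 12 points share the step between Control and plasmid libraries, which most tested genes also show.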

How the data were processed

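The authors deposited whole-number counts per Ensembl gene ID for 12 libraries, with no header. Per the labels' protocols, poly(A) RNA was sequenced as 150 bp paired-end reads. The submitters' processing notes name FastQC 0.11.9, HISAT2 2.2.1, HTSeq 2.0.2 and DESeq2 1.38.3 and the build GRCm39; the strand setting is not given in the sources used here. Gene overlap and transcript length came from GENCODE annotation of GRCm38, not GRCm39, so the coordinates of gene bodies are left out. Only the promoter windows carry coordinates, those of GRCm38.p6.

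Counts were fitted with edgeR 4.0.16 (R 4.3.3; filterByExpr, TMM, quasi-likelihood, a mean for each of 3 groups), with 2-sided tests adjusted over 14253 genes, after testing on simulated data. On the simulated data the share of false calls among called genes was above the threshold of 0.05 in each comparison. Standard errors are the log2 fold change over the square root of F. Replicate numbers are names in accession order. The members, lists and motifs were chosen with earlier results of these data known. Named genes are the 10 members, called list genes changed at least 2-fold with at least 1 CPM in a group (at most 3 per direction), and Tnfrsf11a, Ngfr, Tnfaip3, Birc3 and Traf1. The decay genes Zfp36, Zfp36l1, Zfp36l2 and Rc3h1 are named outside that rule. Alternatives were other scalings, filters, fits, DESeq2 1.42.0, a length offset and leaving out each library. No 2 libraries held identical counts. Counting error is the only error that depth describes.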

Additional observations from a re-analysis of the deposited data

Results flagged for a closer look

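Among 30 measures screened in each of the 3 groups, 90 in all, 1 library lay far from the others of its group, where chance gives about 4.5. Relt, a TNF receptor superfamily member, was at 9.23 CPM in WT replicate 2 and at 7.54 to 7.73 CPM in the other WT libraries.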

How the results depend on the processing

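Each comparison was refitted under 20 other settings, 8 of them changes of method and 12 leaving out 1 library. Against Control, 527 of 538 refitted values kept their direction and their side of the threshold in WT, and 494 of 516 in SIRT5F101L. These tallies leave out Tnf, whose exact p was 0.0571 without any 1 of the 8 libraries of each Control comparison. Part of the genes in them were named because the main fit called them at least 2-fold changed, so their staying called was favoured in advance. For each comparison, the left-out libraries include those of the group not compared. Tnfsf11, Tnfrsf1b, Tnfrsf11b, Tnfrsf12a and Fas were called against Control in all 20. Between SIRT5F101L and WT, edgeR called 6 genes, with 1701 at an unadjusted p under 0.05. That count was 354 with no filter, 2 with a robust prior, 2 with only the 8 libraries compared, 39 with DESeq2, 22 with a length trend as offset, and 0 to 2212 with 1 library left out, the 2212 being without SIRT5F101L replicate 1. Members called were 1 with no filter and 0 to 1 with 1 library left out, in each case Tnfrsf12a.

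Direction changed only for values that were not called. Tnfrsf1a in WT minus Control was -0.0417 with upper-quartile scaling and -0.0187 to 0.0384 with a library left out, and in SIRT5F101L minus Control 0.0137 with the length trend as offset. Tnfsf10 in SIRT5F101L minus Control ran from -0.407 to 0.159 with a library left out. Between SIRT5F101L and WT, the left-out ranges were -0.0141 to 0.0621 for Tnfrsf1b, -0.0352 to 0.0783 for Tnfaip3 (-0.0316 with the length trend as offset), -0.104 to 0.0678 for Traf1 and -0.0271 to 0.0745 CPM for Tnf, whose alternatives were chosen after seeing the data. The cause was not tested. With no filter, Tnf was called in edgeR against Control at -3.12 and -2.88. Few counts limit Tnf, Tnfsf10, Cd40 and the Control level of Tnfsf11. No paired analysis was possible because the labels give no replicate numbers.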
